A study of Arabidopsis thaliana x Arabidopsis arenosa with 4 samples.

Results

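The 80 genes described here had lower RNA levels in the siliques of all 3 Arabidopsis interspecific crosses than in those of the allotetraploid line Allo733. They were chosen by their measured values: a gene had to be listed beside Allo733 in the deposited table of each cross. Its log2 of (cross RPKM + 0.1) over (Allo733 RPKM + 0.1) had to be at most -1 in all 3, a 2-fold lower level. RPKM is the number of reads of a transcript divided by its length and by the depth of the library, and 0.1 RPKM is a pseudocount that keeps ratios of low values finite. Of 1811 genes listed in at least 1 of the 3 tables, 326 were listed in all of them, and 80 of these 326 (24.5%) met the rule. Another 54 (16.6%) were at least 2-fold higher in every cross, and 192 were neither. With 2 tables required in place of 3, 110 genes were lower without C24, 129 without Ler and 123 without Col. Taken one table at a time, 409 of 1319 genes (31%) were lower by 2-fold and 425 (32.2%) higher beside the C24 hybrid, 224 of 806 (27.8%) lower and 242 (30%) higher beside Ler, and 223 of 785 (28.4%) lower and 257 (32.7%) higher beside Col.

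Siliques are the fruits of Arabidopsis with the developing seeds inside, and they were collected 4 days after pollination. The cross samples are labelled F1. They came from hand crosses of tetraploid A. thaliana, of the ecotype C24, Ler or Col, with tetraploid A. arenosa, after removal of the anthers. They are called the C24 cross, the Ler cross and the Col cross here. Allo733 is a line in generation F8 that carries both genomes in a stable form, and its label names Ler as the A. thaliana ecotype. All 4 groups shared the tissue, the age and the growth conditions. The labels do not state which species was the seed parent, whether the fruits themselves were parental or hybrid, nor how the siliques of Allo733 were pollinated. RNA assigned to A. arenosa made up 6.23%, 4.60% and 6.58% of the summed RPKM in the crosses of C24, Ler and Col. From which parent the fruit tissue came was not tested. With 1 library per group, no difference between a cross and Allo733 has a replicate check, the read depth is unknown, and a lower RNA level of a silique cannot be told apart from fewer cells that express the gene.

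Hybrids between A. thaliana and A. arenosa often lose their seeds early, when the endosperm, the tissue that feeds the embryo, develops abnormally. According to its title, the series is about paternal gene expression and seed abortion. Stable allotetraploids such as Allo733 have passed through several rounds of self-fertilization after the genomes were joined. Much of the RNA of a young silique comes from the fruit wall and the seed coats, which belong to the seed parent. The fruit and its seeds are built by hormone-driven growth, wrapped in a lipid cuticle, and stocked with defence proteins.

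The tissue label could be checked in the crosses and not in Allo733. Of 11 markers of fruit and seed coat, 7 were listed in each cross, with summed levels of 178, 202 and 198 RPKM in the crosses of C24, Ler and Col, whereas IND, BAN, TT2 and TT16 were not listed in any. Neither of 2 embryo markers nor any of 4 endosperm markers was listed in a cross. Of 8 pollen markers, 7, 6 and 7 were listed, with summed levels of 33.7, 44.3 and 49.9 RPKM in the same order. None of the fruit, embryo or endosperm markers and only 1 of the pollen markers, AGP23, stood in a table beside Allo733, so a difference in tissue make-up between the crosses and Allo733 was not tested. The tables with Allo733 listed no cross value below 2.02 RPKM for C24, 2.11 for Ler and 1.88 for Col, and a gene that is silent in a cross could not be among the 80.

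As a group the 80 genes were moderately expressed in Allo733 and low in the crosses. Their median was 11.9, 11.4 and 12.3 RPKM in the crosses of C24, Ler and Col, against 48.5 in Allo733. Their summed RPKM was 2224, 2278 and 2666 in the crosses of C24, Ler and Col, against 8730 in Allo733. The crosses spanned 2.02 to 586 RPKM and Allo733 spanned 16.3 to 1378 RPKM. The median log2 ratio was -2.01, -1.88 and -1.89 for the crosses of C24, Ler and Col, beside -0.72, -0.57 and -0.55 over all 326 genes. Levels of the typical listed gene were thus also below Allo733, by a smaller distance than the 80 genes. These ratios chose the genes and are given as a description.

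Few of the differences were extreme. In every cross, 21 genes were at least 4-fold lower than Allo733 and 4 were at least 8-fold lower, whereas 43 were less than 3-fold lower in at least 1 cross. Just inside the threshold were scpl29 at a smallest log2 difference of -1.01 and AT4G11320 at -1.02. Just outside it were ASG5 at -0.96, AT5G22580 at -0.95 and AT2G44670 at -0.94.

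**Figure D1:**
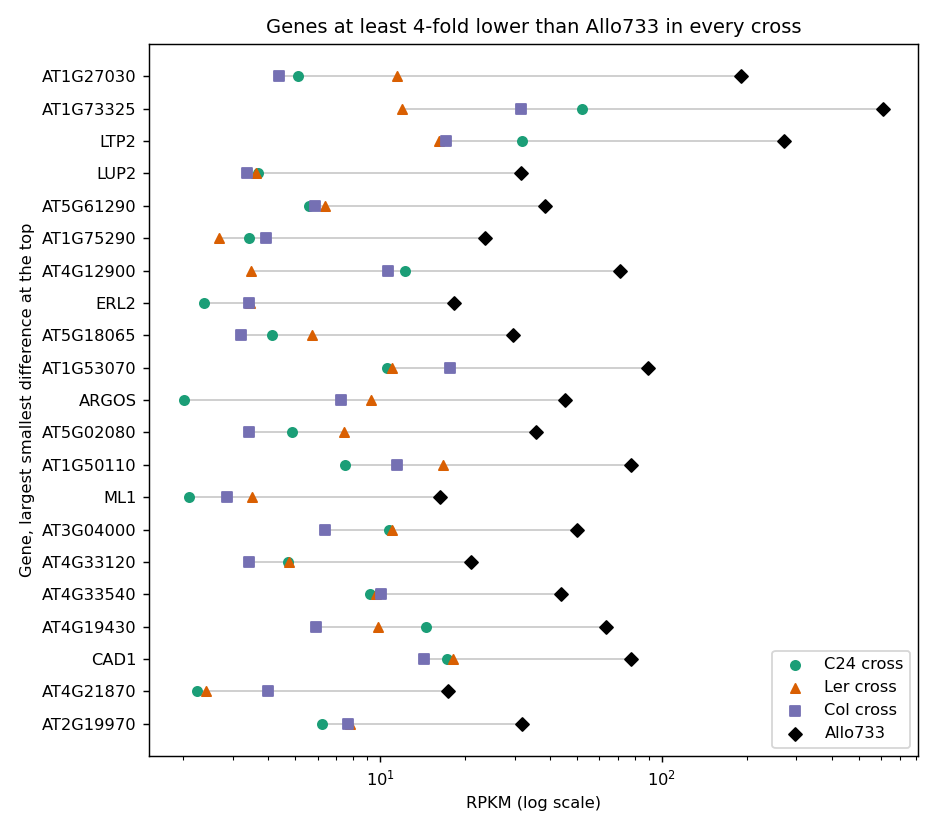
RPKM on a log scale of the 21 genes that were at least 4-fold lower than Allo733 in all 3 crosses, with 1 library per point: circles, triangles and squares for the crosses of C24, Ler and Col, and black diamonds for Allo733. The lowest of these genes were near 2 RPKM in the crosses, and the 3 crosses lie close together for LUP2 and AT4G33540 but are spread for ARGOS and AT1G73325.

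The largest difference was that of AT1G27030, an uncharacterized protein. It had 5.13, 11.5 and 4.39 RPKM in the crosses of C24, Ler and Col, against 191 in Allo733, and was at least 16.5-fold lower in every cross. AT1G73325, an inhibitor of the Kunitz family, whose members block proteases of feeding insects and of the plant itself, had 52.0, 11.9 and 31.6 RPKM in the crosses of C24, Ler and Col, against 611 in Allo733. It stood at least 11.7-fold below Allo733, and the crosses themselves differed by 4.36-fold. LTP2 and LUP2, described with the lipid genes, completed the 4 genes that were 8-fold lower throughout. The other 2 uncharacterized genes were AT4G19430, at 14.6, 9.82 and 5.92 RPKM in the crosses of C24, Ler and Col against 63.1 in Allo733, and AT5G60840, at 8.41, 12.6 and 9.84 RPKM in the same crosses, against 42.8 in Allo733.

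Genes of hormone signalling and organ growth numbered 7. ERL2, a receptor kinase that acts with ERECTA in organ growth and stomatal spacing, had 2.38, 3.45 and 3.43 RPKM in the crosses of C24, Ler and Col, against 18.2 in Allo733. ARGOS, an auxin-induced gene that promotes the growth of lateral organs by prolonging cell division, had 2.02, 9.24 and 7.24 RPKM in the crosses of C24, Ler and Col, against 45.4 in Allo733. Its relative ARL, which promotes growth by cell expansion, had 15.5, 22.8 and 16.0 RPKM in the same crosses, against 50.9 in Allo733. ARGOS had its lowest value in the C24 cross, 4.58-fold under its highest. Among the hormone genes, AOC3 encodes an allene oxide cyclase of jasmonate synthesis and JAZ3 a repressor of jasmonate signalling. AOC3 had 12.5, 6.69 and 8.68 RPKM in the crosses of C24, Ler and Col, against 32.6 in Allo733. JAZ3 had 10.1, 9.36 and 9.77 RPKM in the same crosses, against 37.2 in Allo733, for the isoform that was kept. AT1G12010, an oxygenase of the 2-oxoglutarate and iron-dependent superfamily, had 47.3, 82.2 and 16.2 RPKM in the crosses of C24, Ler and Col, against 242 in Allo733. Its Col value was 14.8-fold below Allo733 and its Ler value 2.94-fold below.

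Genes that protect cells from stress formed a group of 11. LTI78 and ERD10 are classic targets of cold and drought signalling, in which DREB/CBF transcription factors bind a short element in the promoter. LTI78, also known as RD29A, had 13.1, 7.45 and 16.2 RPKM in the crosses of C24, Ler and Col, against 43.2 in Allo733. ERD10, a dehydrin that shields proteins and membranes during water loss, had 21.0, 23.4 and 28.3 RPKM in the crosses of C24, Ler and Col, against 73.1 in Allo733. LTI78 was lowest in the Ler cross, whereas C24 gave the lowest ERD10 value.

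The promoters of these 2 genes are shown because both belong to the cold and dehydration list, and only 1 of the 2 holds the element. The 250 bases before the annotated transcript start are given 5′ to 3′ on the gene's strand, from the RefSeq sequence and annotation of build TAIR10.1, in lower case with the core of the dehydration-responsive element, CCGAC, in capitals.
LTI78, chr5:21240467-21240716, plus strand: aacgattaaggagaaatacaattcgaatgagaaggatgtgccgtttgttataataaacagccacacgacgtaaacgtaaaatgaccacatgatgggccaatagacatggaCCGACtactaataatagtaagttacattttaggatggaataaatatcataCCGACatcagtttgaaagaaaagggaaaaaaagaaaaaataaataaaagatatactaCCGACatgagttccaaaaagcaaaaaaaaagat
ERD10, chr1:7089607-7089856, minus strand: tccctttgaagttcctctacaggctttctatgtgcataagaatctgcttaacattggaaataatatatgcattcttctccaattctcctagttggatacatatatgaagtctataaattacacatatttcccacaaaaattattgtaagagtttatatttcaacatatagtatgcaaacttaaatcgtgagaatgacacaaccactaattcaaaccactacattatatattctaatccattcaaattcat
The LTI78 window held the core 3 times, counting both strands, and the ERD10 window held neither this core nor the abscisic acid response element letters ACGTGT or the G-box CACGTG. A window without the letters says nothing of sites elsewhere in the gene. Of the 78 promoters that could be read for the 80 genes, 8 held the core (10.3%), beside 8.61% of 244 promoters of the other listed genes and 12% of 27443 promoters of the same length. The letters ACGTGT stood in 6.41% of the 78 promoters, 16.0% of the other listed genes and 10.5% of all, and CACGTG in 6.41%, 9.43% and 6.49%. The W-box TTGACC stood in 17.9% of the 78 promoters, 11.1% of the other listed genes and 12.2% of all, and the other W-box form TTGACT in 20.5%, 14.8% and 19.1%. The evening element core AATATCT stood in 16.7% of the 78 promoters, 11.1% of the other listed genes and 10.0% of all, the phosphate starvation element GNATATNC in 2.56%, 5.74% and 5.46%, and the ethylene response element GCCGCC in 0, 1.23% and 1.87%. The heat shock element core GAANNTTC stood in 7.69% of the 78 promoters, 6.56% of the other listed genes and 9.55% of all, and the site II element TGGGCC in 14.1%, 16.4% and 13.7%. The as-1 core TGACG stood in 19.2%, 17.62% and 18.6%, and the MSA core of cell cycle promoters, AACGG, in 21.8%, 20.5% and 20.6% of the same sets. Both strands were searched for each motif, and ACGTGT and CACGTG can overlap.

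The other stress genes had varied tasks. ELIP2, an early light-induced protein that protects chloroplasts from excess light, had 23.1, 10.1 and 28.1 RPKM in the crosses of C24, Ler and Col, against 97.1 in Allo733. CAD1, which is phytochelatin synthase 1 and makes metal-binding peptides, had 17.2, 18.2 and 14.3 RPKM in the crosses of C24, Ler and Col, against 77.9 in Allo733. SPX1, an inhibitor of the phosphate starvation response, had 7.46, 11.3 and 6.10 RPKM in the crosses of C24, Ler and Col, against 28.6 in Allo733. The spread between crosses was wider for ELIP2 than for CAD1. Chaperones were represented by Hsp81.4, of the HSP90 family, with 27.6, 27.3 and 23.5 RPKM in the crosses of C24, Ler and Col against 67.2 in Allo733, and by AT4G21870 and AT1G54850, which resemble small heat shock proteins. AT4G21870 had 2.24, 2.41 and 4.00 RPKM in the crosses of C24, Ler and Col, against 17.4 in Allo733, and AT1G54850 had 6.70, 10.3 and 7.44 RPKM in the same crosses, against 31.4 in Allo733. These 2 were the only HSP20-like genes listed in all 3 tables. Families by product words, here and further on, were drawn up from the 80 genes after their values had been seen, so that their counts are a description, to be read beside the 24.5% of all 326 listed genes that were lower in every cross. HVA22C, of a family induced by abscisic acid in barley, had 23.4, 34.0 and 30.9 RPKM in the same crosses, against 73.9 in Allo733. PLAT2 had 36, 53.6 and 65.5 RPKM in the same crosses, against 142 in Allo733, and ALDH7B4, an aldehyde dehydrogenase induced by drought and salt, had 44.8, 44.2 and 42.9 RPKM in the same crosses, against 126 in Allo733 for 1 of its isoforms.

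Defence and secreted proteins numbered 10 and included the most abundant of the 80 genes. AT4G12870, a thiol reductase of the GILT family, had 269, 206 and 503 RPKM in the crosses of C24, Ler and Col, against 1378 in Allo733. Its neighbour AT4G12900, of the same family with 2 protein-coding genes between them, had 12.2, 3.47 and 10.7 RPKM in the same crosses, against 70.9 in Allo733. Both were lowest in the Ler cross. JAL23, a jacalin-related lectin of a family that includes binding partners of myrosinase, had 412, 446 and 586 RPKM in the crosses of C24, Ler and Col, against 1195 in Allo733. The legume-type lectin AT1G53070 had 10.5, 11.1 and 17.8 RPKM in the same crosses, against 89.0 in Allo733. Of 3 genes with lectin in the product name in all 3 tables, the other one, JR1, missed the threshold in the Col cross. JR1 had 84.8, 149 and 175 RPKM in the crosses of C24, Ler and Col, against 314 in Allo733. The myrosinase-binding protein gene MBP1, whose product name lacks that word, was also listed in all 3 tables and is not among the 80. AT2G19970, of the family of pathogenesis-related protein 1, had 6.22, 7.82 and 7.70 RPKM in the same crosses, against 31.9 in Allo733. ARPN, a plantacyanin of the pistil, had 14.9, 29.1 and 13.1 RPKM in the same crosses, against 85.5 in Allo733, and BGLU25, a beta-glucosidase, had 13.5, 12.5 and 12.2 RPKM in the same crosses, against 48.0 in Allo733. The papain-type protease AT4G11320 and the serine carboxypeptidase-like gene scpl29 were at the threshold.

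Lipid and surface genes numbered 8. LTP2, a secreted lipid transfer protein of the epidermis that helps to build the cuticle, had 32.0, 16.1 and 17.2 RPKM in the crosses of C24, Ler and Col, against 272 in Allo733, and was at least 8.49-fold lower. It was the only one of the 4 genes on the lipid transfer list, LTP1 to LTP4, to meet the rule, beside 24.5% of all listed genes. Its neighbouring paralog LTP1 had 1484, 1218 and 2392 RPKM in the crosses of C24, Ler and Col, against 1909 in Allo733, and LTP3 and LTP4 were also neither lower nor higher throughout. LUP2, an enzyme that folds squalene epoxide into triterpenes, had 3.68, 3.64 and 3.36 RPKM in the crosses of C24, Ler and Col, against 31.5 in Allo733, with crosses within 1.09-fold of each other. SQE6, of the squalene epoxidase family that acts just before it, had 17.1, 16.6 and 3.21 RPKM in the crosses of C24, Ler and Col, against 39.6 in Allo733. The crosses differed by 5.31-fold in SQE6, more than in any other of the 80 genes, and only the Col cross was far below Allo733. AT1G62500, of the lipid transfer and seed storage superfamily, had 9.77, 29.0 and 8.21 RPKM in the crosses of C24, Ler and Col, against 82.7 in Allo733. Of 9 genes with lipid transfer in the product name listed for all 3 crosses, LTP2 and AT1G62500 were lower in every cross. Another 4, AT2G45180, AT4G15160, AT5G01870 and AT5G48490, were higher in every cross, and 3 were neither. Among all listed genes 24.5% were lower and 16.6% higher. WSD1, a wax ester synthase, had 61.1, 62.5 and 57.8 RPKM in the same crosses, against 136 in Allo733, and the lipid-binding gene AT5G37740 had 2.95, 5.94 and 2.68 RPKM in the same crosses, against 22.7 in Allo733. XPL1, a phosphoethanolamine methyltransferase that makes the head group of membrane phosphatidylcholine, had 26.7, 31.8 and 26.1 RPKM in the same crosses, against 78.2 in Allo733. The code AT3G17998, which has no RefSeq entry, carried nearly the same values as XPL1 in all 4 samples, and both are counted among the 80.

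The largest role was amino acid, redox and other metabolism, with 18 genes and median log2 ratios of -2.13, -2.15 and -2.30 in the crosses of C24, Ler and Col. AT1G50110, an aminotransferase, had 7.50, 16.7 and 11.5 RPKM in the crosses of C24, Ler and Col, against 77.7 in Allo733. ASP4, an aspartate aminotransferase, had 6.61, 16.6 and 14.4 RPKM in the same crosses, against 44.6 in Allo733, and OMR1, the threonine deaminase that starts isoleucine synthesis, had 7.94, 15.6 and 14.4 RPKM in the same crosses, against 34.8 in Allo733. These 3 amino acid genes had their lowest value in the C24 cross. AT5G61290, a flavin-binding monooxygenase, had 5.61, 6.39 and 5.89 RPKM in the crosses of C24, Ler and Col, against 38.5 in Allo733. AT5G02080, which resembles a ligase of coenzyme A synthesis, had 4.85, 7.46 and 3.43 RPKM in the same crosses, against 35.8 in Allo733. Redox enzymes of the Rossmann-fold and NmrA-like families came as a pair of adjacent genes, AT1G75290 and AT1G75300, and AT3G04000. AT1G75290 had 3.44, 2.68 and 3.92 RPKM in the crosses of C24, Ler and Col, against 23.6 in Allo733, AT1G75300 had 10.4, 9.38 and 13.6 RPKM in the same crosses, against 34.3 in Allo733, and AT3G04000 had 10.8, 11.1 and 6.39 RPKM in the same crosses, against 49.9 in Allo733. They are the 3 genes with these product words that were listed in all 3 tables, of 11 listed in any, and all 3 were lower (24.5% of all listed genes). AT1G75300 shares 66.4% of its 36-base words with AT1G75295, which overlaps it on the opposite strand.

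This role also held methyltransferases and oxygenases. Of 6 listed genes with methyltransferase in the product name, XPL1 of the lipid genes, OMTF3 and AT4G33120 were lower in every cross (3 of 6, beside 24.5% of all listed genes) and 1, AT1G71690, was higher (beside 16.6%). OMTF3 had 8.63, 2.89 and 3.00 RPKM in the crosses of C24, Ler and Col, against 28.2 in Allo733, and AT4G33120 had 4.72, 4.74 and 3.43 RPKM in the same crosses, against 21.1 in Allo733. The 2-oxoglutarate-dependent oxygenases AT3G19000 and AT4G16770 and the gene AT1G12010 of the hormone and growth group were the only 3 of 107 genes with that product word listed in all 3 tables, and all 3 were lower (24.5% of all listed genes). AT3G19000 had 8.77, 8.29 and 8.39 RPKM in the crosses of C24, Ler and Col, against 25.6 in Allo733, and AT4G16770 had 11.5, 10.6 and 6.58 RPKM in the same crosses, against 35.1 in Allo733. AT3G19000 was nearly equal in the 3 crosses, within 1.06-fold. AT1G60740, of the thioredoxin superfamily, had 7.72, 2.86 and 2.28 RPKM in the crosses of C24, Ler and Col, against 23.5 in Allo733. PAO4, a polyamine oxidase of peroxisomes, had 6.44, 7.72 and 7.14 RPKM in the same crosses, against 22.9 in Allo733, and the cytochrome P450 gene CYP71B26 had 16.6, 10.5 and 23.3 RPKM in the same crosses, against 65.4 in Allo733. The P-loop hydrolase AT1G43910 had 7.34, 9.63 and 7.48 RPKM in the crosses of C24, Ler and Col, against 34.8 in Allo733, the metallo-beta-lactamase family gene AT4G33540 had 9.19, 9.66 and 10.0 RPKM in the same crosses, against 43.8 in Allo733, and the hydrolase gene AT5G59480 had 20.07, 32.6 and 25 RPKM in the same crosses, against 67.7 in Allo733.

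RNA silencing, RNA binding and nuclear transport were represented by 5 genes. AGO2, an Argonaute protein of antiviral silencing, had 10.8, 11.5 and 12.3 RPKM in the crosses of C24, Ler and Col, against 36.7 in Allo733. AT5G18065, annotated as a target of trans-acting small interfering RNAs, had 4.13, 5.72 and 3.20 RPKM in the same crosses, against 29.7 in Allo733. ML1, a MEI2-like RNA-binding protein, had 2.09, 3.50 and 2.86 RPKM in the same crosses, against 16.3 in Allo733, for the isoform that was kept. AGO2 was nearly level across the crosses, and AT5G18065 and the kept isoform of ML1 were under 6 RPKM in each of them. The exportin gene AT3G04490 had 8.73, 10.3 and 10.1 RPKM in the crosses of C24, Ler and Col, against 37.8 in Allo733, and EMB3142, a protein of the nuclear pore, had 5.90, 10.8 and 9.71 RPKM in the same crosses, against 32.0 in Allo733.

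Translation genes numbered 9, of which 5 had C24 as the lowest cross, 3 had Ler and 1 had Col, with median log2 ratios of -1.87, -1.40 and -1.36 in the crosses of C24, Ler and Col. AT2G37600, a ribosomal protein of the L36e family, had 25.4, 62.4 and 76.6 RPKM in the crosses of C24, Ler and Col, against 165 in Allo733. AT1G74270, of the L35Ae family, had 84.8, 114 and 112 RPKM in the same crosses, against 287 in Allo733, RPL10B had 16.9, 22.0 and 25.5 RPKM in the same crosses, against 55.4 in Allo733, and AT3G04230, of the S5 domain superfamily, had 24.3, 22.2 and 37.8 RPKM in the same crosses, against 110.0 in Allo733. AT2G37600, AT1G74270 and RPL10B were lowest in the C24 cross, whereas AT3G04230 was lowest with Ler. Of 29 genes with ribosomal in the product name in all 3 tables, 6 were lower in every cross (5 ribosomal protein genes and AT2G01010, a ribosomal RNA gene), 1 was higher and 22 were neither, beside 24.5% lower and 16.6% higher among all listed genes. The median log2 ratio of the 29 was -1.17, -0.47 and -0.58 in the crosses of C24, Ler and Col, beside the -0.72, -0.57 and -0.55 of all listed genes. Outside the ribosome, AT1G23280, a MAK16-like protein of ribosome assembly, had 8.13, 23.8 and 17.1 RPKM in the crosses of C24, Ler and Col, against 49.0 in Allo733. The elongation factor gene AT5G12110 had 12.7, 11.3 and 18.2 RPKM in the same crosses, against 46.6 in Allo733, and TAP46, a regulatory partner of protein phosphatase 2A in the TOR pathway, had 21.0, 23.4 and 23.6 RPKM in the same crosses, against 52.0 in Allo733. AT5G12110 shares 64.8% of its 36-base words with AT5G12120, which overlaps it on the opposite strand, and whether reads were counted by strand is not given in the sources used here. AT2G01010, a gene for 18S ribosomal RNA, had 27.8, 7.05 and 24.9 RPKM in the crosses of C24, Ler and Col, against 87.8 in Allo733. Of its 36-base words, 95.9% recur in AT3G41768, whose levels ran the other way at 654, 1073 and 1187 RPKM in the same crosses, against 337 in Allo733, so most reads of these 2 copies cannot be told apart and the direction of AT2G01010 is uncertain.

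Wall and cytoskeleton genes numbered 7. EXPA10, an expansin that loosens cell walls, had 36.9, 28.4 and 28.9 RPKM in the crosses of C24, Ler and Col, against 96.6 in Allo733, for the 1 isoform that met the rule. TUB1, a beta-tubulin, had 28.7, 23.6 and 26.6 RPKM in the same crosses, against 77.6 in Allo733. TBL36, of a family that acetylates wall polysaccharides, had 5.70, 9.25 and 8.12 RPKM in the same crosses, against 35.7 in Allo733. The 3 crosses were close together in TUB1 and EXPA10. DOT1, a glycine-rich protein, had 15.9, 27.9 and 7.63 RPKM in the crosses of C24, Ler and Col, against 58.7 in Allo733. The pectin methylesterase family gene AT3G10720 had 17.4, 17.7 and 26.7 RPKM in the same crosses, against 66.5 in Allo733, the E6-like gene AT1G03820 had 13.9, 11.8 and 20.3 RPKM in the same crosses, against 46.4 in Allo733, and AT1G59710, with an actin cross-linking domain, had 8.10, 7.99 and 6.16 RPKM in the same crosses, against 28.2 in Allo733. DOT1 was the most variable of the 7 and was lowest in the Col cross. Only 2 genes were transporters. PIP2;8, a plasma membrane aquaporin, had 5.78, 7.69 and 10.8 RPKM in the crosses of C24, Ler and Col, against 29.9 in Allo733, and the MATE efflux gene AT1G11670 had 7.53, 6.82 and 7.70 RPKM in the same crosses, against 27.7 in Allo733.

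**Figure D2:**
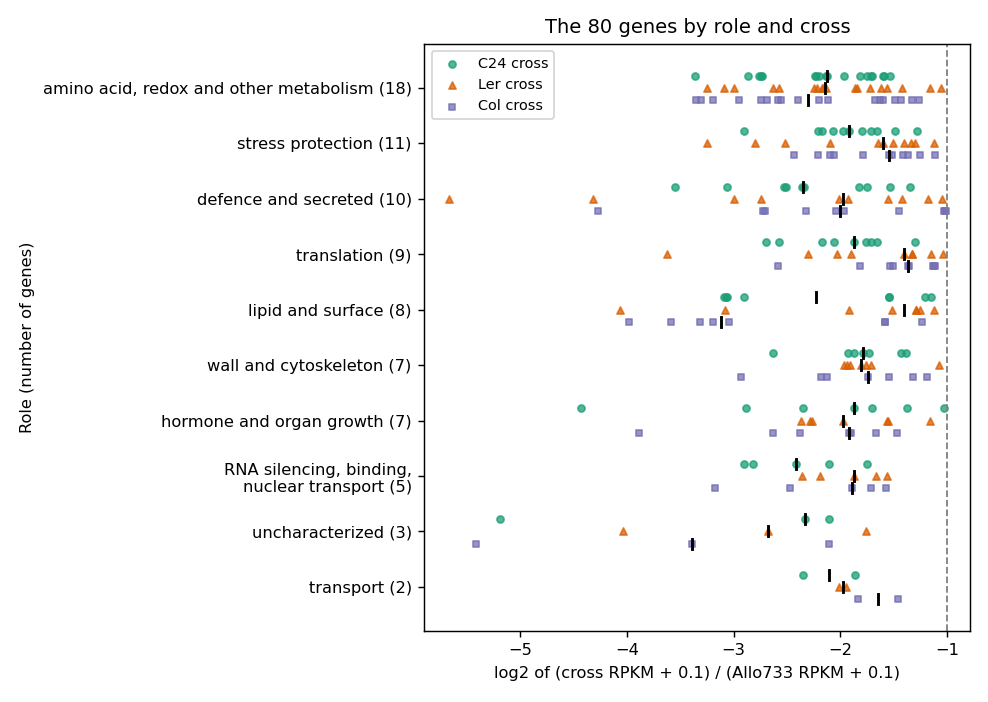
Each of the 80 genes in each cross, grouped by role, as log2 of (cross RPKM + 0.1) over (Allo733 RPKM + 0.1), with black bars for the median of a role in a cross and the dashed line for the 2-fold threshold at -1. Translation genes lie nearer to the threshold in the Ler and Col crosses (medians -1.40 and -1.36) than in the C24 cross (-1.87), and single genes of several roles reach below -3.

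Lists of pathway genes set these members beside their relatives. The counts of these lists, here and below, are to be read beside all 326 listed genes. Of these, 24.5% were lower in every cross and 16.6% were higher. Of 13 genes on the cold and dehydration list, 4 were listed in all 3 tables, and LTI78 and ERD10 were lower in every cross. The other 2 were neither: COR47, a dehydrin closely related to ERD10, had 70.6, 143 and 101 RPKM in the crosses of C24, Ler and Col, against 189 in Allo733, and RD22 had 762, 510.0 and 433 RPKM in the same crosses, against 600.0 in Allo733. RD20, listed for the Ler and Col crosses, had 150 and 122 RPKM there, against 193 in Allo733. A pair of further genes were listed for 1 cross only. KIN1, listed for Col, had 5.43 RPKM there and 94.8 in Allo733, whereas COR15A, listed for C24, had 40.8 RPKM there and 7.93 in Allo733. The cold genes thus included members lower and higher than Allo733. On the iron and phosphate list, SPX1 was lower in every cross and the ferritin FER1 was not, with 25.7, 48.5 and 199 RPKM in the crosses of C24, Ler and Col, against 83.7 in Allo733. Other ferritins were partly listed: FER4 had 6.11 and 17.9 RPKM in the crosses of C24 and Ler, against 42.5 in Allo733, and FER3 had 32.0 RPKM in the C24 cross, against 70.7 in Allo733.

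Other lists had few or none of their genes among the 80. The jasmonate and wounding list had 3 genes in all 3 tables, LOX2, VSP1 and VSP2, and none was lower in every cross, although AOC3 and JAZ3, which were not on that list, were. LOX2 had 2542, 1904 and 1778 RPKM in the crosses of C24, Ler and Col, against 3102 in Allo733. VSP1 had 3910, 1633 and 3692 RPKM in the same crosses, against 2826 in Allo733, and VSP2 had 3157, 612 and 1347 RPKM in the same crosses, against 1034 in Allo733. Both stood above Allo733 in the C24 and Col crosses and below it in the Ler cross. LOX4 and MYC2 were listed for C24 only, with 19.2 and 86.0 RPKM there, against 2.66 and 38.5 in Allo733. Of 22 genes on the photosynthesis list, which does not hold ELIP2, 18 were in all 3 tables. Of these 18, none was lower in every cross (beside 24.5% of all listed genes). Another 3 (CAB1, CAB2 and LHCB3) were higher (beside 16.6%). The median log2 ratio of the 18 was 0.82, 0.99 and 0.71 in the crosses of C24, Ler and Col. Of 5 glucosinolate genes, 1 was higher and none lower in every cross, and 5 secondary wall genes were neither. The remaining 11 lists had no gene listed in all 3 tables. They cover DNA methylation, cell cycle, circadian clock, flavonoids, fruit and seed markers, heat shock, pollen, salicylate defence, seed storage, senescence and type I MADS genes.

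**Figure D3:**
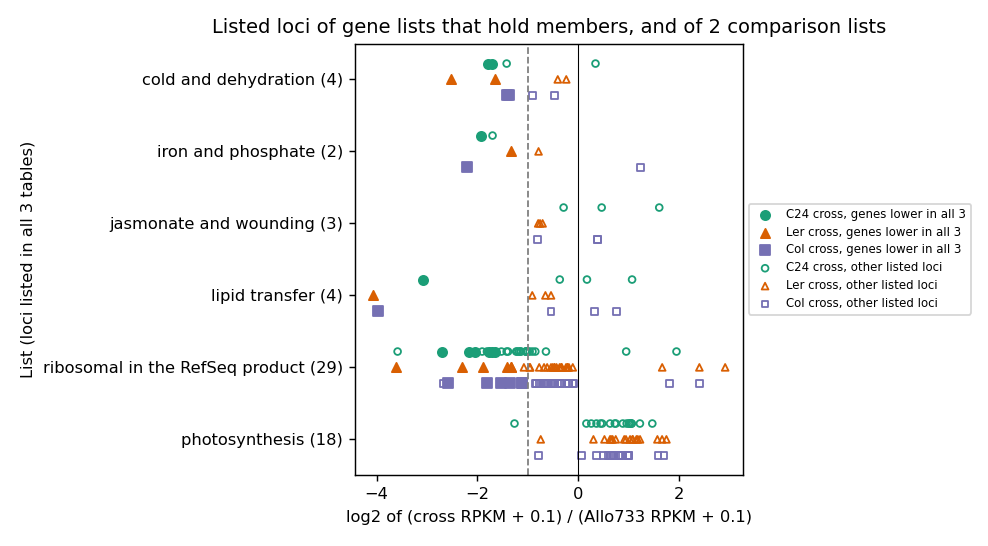
Genes of 6 lists that were listed in all 3 tables, as log2 of (cross RPKM + 0.1) over (Allo733 RPKM + 0.1), with filled symbols for genes lower in all 3 crosses, open symbols for the other listed genes, and the dashed line at the 2-fold threshold. LTP2 stands alone on the left of the lipid transfer genes, the ribosomal genes lie mostly between 0 and -2, and most photosynthesis genes lie above 0.

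The crosses differed among themselves by a median of 1.63-fold between the highest and the lowest, and in 34 of the 80 genes they lay within 1.5-fold of each other. The C24 cross was the lowest for 34 genes and the highest for 20. The Ler cross was the lowest for 21 and the highest for 36, and the Col cross the lowest for 25 and the highest for 24. These counts and the 1.5-fold count are of uncentred RPKM and were not made over all listed genes. Over all 326 listed genes the median log2 ratio to Allo733 was also lowest in the C24 cross (-0.72, beside -0.57 for Ler and -0.55 for Col). Totals that were at least 2-fold above or below both other crosses, after centring on the typical gene, are a rule of size with 1 library each. The C24 cross was above both others in AT1G60740, LTP2 and OMTF3 (3 of 80, beside 2.24% of 14687 genes) and below both in AT2G37600 and ARGOS (2 of 80, beside 1% of all). The Ler cross was above both others in AT1G62500 (1 of 80, beside 1.1% of all) and below both in AT1G73325, AT2G01010, AT4G12900 and ELIP2 (4 of 80, beside 1.33%). The Col cross was above both others in none of the 80 (0.538% of all) and below both in AT1G12010, DOT1 and SQE6 (3 of 80, beside 0.974%).

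The A. arenosa share of the RNA was not itself part of the rule, and it could be tested over the 3 crosses. The A. thaliana and A. arenosa RPKM of these genes, however, add up to the cross totals that the rule used. The share is thus not independent of the choice, and how far choosing low totals moves it was not tested. For each cross the authors deposited the RPKM carried by the A. thaliana and by the A. arenosa allele, while Allo733 was not analysed here by allele. Summed over the 80 genes, the A. arenosa allele supplied 129, 138 and 232 RPKM and the A. thaliana allele 2095, 2140 and 2434 RPKM in the crosses of C24, Ler and Col. The median share was 6.05%, 4.96% and 5.47% in the crosses of C24, Ler and Col (mean 5.49% ± 0.54, SD, n = 3 crosses), beside 5.41%, 3.77% and 4.79% over all 14660 genes with allele values. Most of the 80 genes therefore carried little A. arenosa RNA, as most genes of these siliques did. The upper end was longer: a share of at least 20% was seen in 12, 9 and 11 of the 80 genes (15%, 11.2% and 13.8%), beside 5.65%, 3.03% and 7.34% of all genes in the crosses of C24, Ler and Col. It was reached in all 3 crosses by 6 of the 80, beside 177 of all 14660 genes and 1 of the other 246 listed genes. The 54 genes higher than Allo733 in every cross had 5.56%, 3.70% and 18.5% of their number at such a share in the crosses of C24, Ler and Col, more than the 80 genes in the Col cross. At the other end, A. arenosa RPKM below 0.01 was found in 11, 11 and 12 of the 80 genes (13.8%, 13.8% and 15%), beside 8.40%, 10.6% and 10.2% of all.

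**Figure D4:**
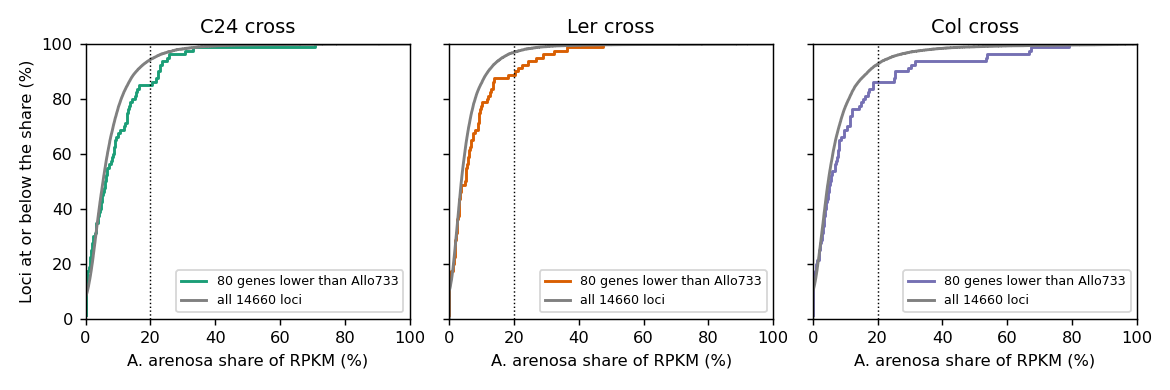
Cumulative percentage of genes at or below a given A. arenosa share of RPKM in each cross, for the 80 genes (coloured) and for all 14660 genes (grey), with the dotted line at a share of 20%. At the dotted line 15%, 11.2% and 13.8% of the 80 genes lie at 20% or more in the crosses of C24, Ler and Col, beside 5.65%, 3.03% and 7.34% of all genes.

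To test single genes, log2 of (A. arenosa RPKM + 0.1) over (A. thaliana RPKM + 0.1) was centred on the median of its cross and compared with 0 over the 3 crosses by limma, adjusted over 14660 genes. Of the 80 genes, 15 (18.8%) had a ratio above that of the typical gene at a Benjamini-Hochberg adjusted p below 0.05, beside 7.97% of all genes. Another 2 (2.5%) had a ratio below it, beside 3.36% of all. The other 246 genes listed in all 3 tables had 11 above (4.47%) and 36 below (14.6%). The share called above was thus higher among the 80 genes than among all genes or the other listed genes, a description with no test of that difference. By sign alone the sets were closer: 35% of the 80 genes lay above the typical ratio in all 3 crosses, beside 28.3% of all genes. Below it in all 3 crosses lay 30% of the 80, beside 28.1% of all genes. With any 1 of the 3 crosses left out, limma called none of the 80 genes and none of the 14660. Without the C24, Ler or Col cross, 24, 26 and 35 of the 80 had an unadjusted limma p below 0.05. Over all 14660 genes the counts were 3760, 3481 and 4453 in the same order. In the full fit, 32 of the 80 and 5070 of all genes had one. Without centring, no gene of the 80 was called above and 75 were called below, as were 14463 of all 14660.

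AT1G60740 had the largest ratio of the 15 genes called above. Its A. arenosa share was 70.8%, 47.6% and 53.8% in the crosses of C24, Ler and Col, and its centred log2 ratio was 4.55 ± 0.52 (SE, n = 3 crosses, limma adjusted p = 0.0383). It was the only one of the 15 whose ratio stayed above 0 without centring, at 0.44. Of its 36-base words, 19.5% recur in AT1G65970, and what this does to its share was not tested. AT2G19970, the relative of pathogenesis-related protein 1, had shares of 21.7%, 36.3% and 79.0%, with a ratio of 3.88 ± 0.80 (SE, n = 3, limma adjusted p = 0.0465), and AT1G12010, the oxygenase, had shares of 30.6%, 29.0% and 67.5%, with a ratio of 3.64 ± 0.60 (limma adjusted p = 0.0383). In both genes the Col cross stood far above the other 2. AT4G19430 behaved alike, with shares of 22.9%, 24.3% and 66.7%. Shares were more even in ELIP2, at 23.0%, 32.2% and 31.6% with a ratio of 2.82 ± 0.38 (SE, n = 3, limma adjusted p = 0.0383), and in AT5G59480, at 23.7%, 22.5% and 29.4% with a ratio of 2.55 ± 0.32 (limma adjusted p = 0.0383). SQE6 had shares of 25.6%, 26.9% and 16.2%, and the ribosomal protein gene AT3G04230 had 25%, 21.2% and 18.6%, with ratios of 2.41 ± 0.35 and 2.26 ± 0.30 (SE, n = 3, limma adjusted p = 0.0383 for each). The other 7 called genes were AT5G02080, AT4G16770, AT3G04490, AT5G18065, AT1G54850, AT2G37600 and PAO4, with ratios of 1.30 to 2.16. Except for AT1G60740, all 15 had a ratio below 0 without centring.

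The 2 genes called below were close to pure A. thaliana. AT1G73325, the Kunitz inhibitor, drew 0, 0.0022% and 0.214% of its RNA from A. arenosa in the crosses of C24, Ler and Col, with a centred log2 ratio of -3.72 ± 0.69 (SE, n = 3 crosses, limma adjusted p = 0.0413). AT1G43910 had 0.000201%, 0.404% and 0, with a ratio of -2.08 ± 0.42 (limma adjusted p = 0.0457). These ratios rest on the pseudocount, since A. arenosa RPKM was near 0: with 1 RPKM in place of 0.1 the ratio was -1.90 for AT1G73325, which was still called, and -0.28 for AT1G43910, which was not. All 15 ratios above the typical gene also came nearer to 0, at 0.42 to 3.23, and of these AT2G37600, at 0.42, was not called. Several other genes had shares near 0 without a call, among them OMTF3, AT4G21870 and, in the C24 and Ler crosses, ERD10. LTI78 also had little A. arenosa RNA, with shares of 0.373%, 1.68% and 0.931% and a ratio of -1.73 ± 0.52 (SE, n = 3, limma adjusted p = 0.0863). How reads were assigned to alleles is not given in the sources used here, and what that does to shares near 0 was not tested. ARPN and RPL10B had uneven shares, at 33.3%, 0 and 53.6% in the crosses of C24, Ler and Col for ARPN and 22.4%, 18.1% and 0 for RPL10B, and limma called neither.

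**Figure D5:**
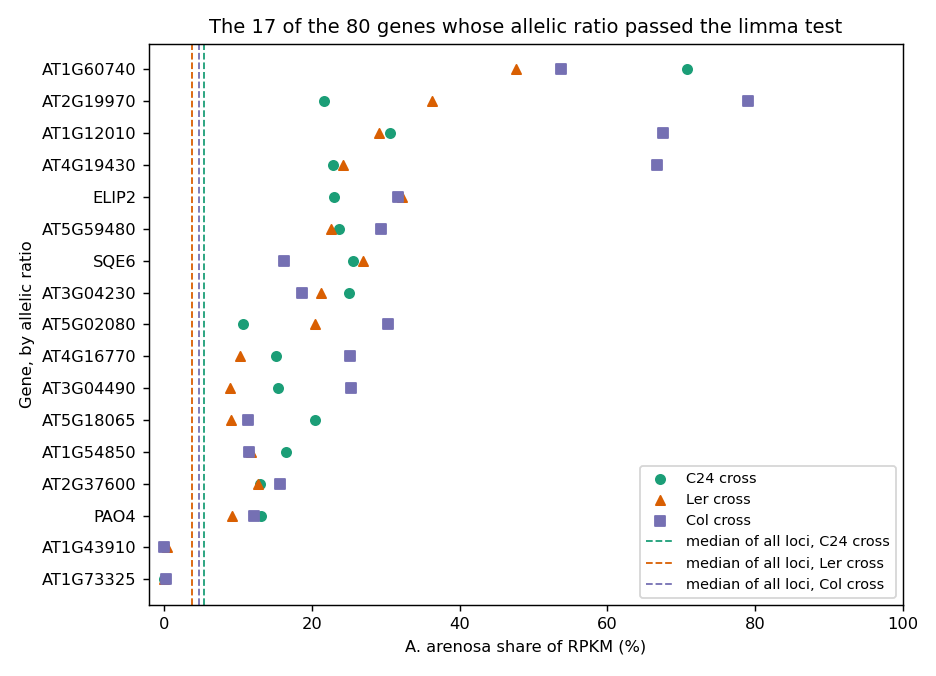
A. arenosa share of RPKM in each cross for the 17 of the 80 genes whose centred allelic ratio passed limma's test at an adjusted p below 0.05, 15 above and 2 below the typical gene, with dashed lines at the median share of all genes in each cross. The 15 genes lie to the right of all 3 lines in every cross, AT1G60740 is near or above 50%, and AT1G43910 and AT1G73325 lie near 0.

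Gene models bear on some of the values: 17 of the 80 genes are overlapped by another annotated gene, and 11 had other isoforms, of which the rule kept 1. Of 79 genes searched, 11 had over 10% of their 36-base words in another gene and 3 had over 50%. Overlaps, isoforms and shared words were counted for the 80 genes only, so whether other listed genes differ in them is not known. When the isoforms with an Allo733 value were summed, 3 genes were no longer 2-fold lower in every cross. EXPA10 then had 92.2, 30.7 and 71.8 RPKM in the crosses of C24, Ler and Col, against 102 in Allo733. Its second isoform alone was higher in the C24 cross (55.3 RPKM) and the Col cross (43.0 RPKM) than in Allo733 (5.48 RPKM). ALDH7B4 had 66.9, 79.8 and 66.4 RPKM in the same crosses, against 136 in Allo733, and AT3G06700, of the ribosomal L29e family, had 309, 494 and 470 RPKM in the same crosses, against 542 in Allo733. The transcript of AT3G06700 that met the rule, with 6.44, 7.21 and 4.43 RPKM in the same crosses, against 27.1 in Allo733, held only 0.941% to 2.08% of the RPKM of its gene in the crosses. The transcripts kept for ML1 and JAZ3 also held the smaller part of their genes, 7.19% to 10.4% and 36.6% to 38.6%. No other isoform of ML1 or JAZ3 had an Allo733 value, so whether these genes as a whole were lower is not known. The ribosomal protein gene AT5G22440 had isoforms on opposite sides. One had 7.85, 39.1 and 42.9 RPKM in the crosses of C24, Ler and Col, against 94.0 in Allo733, and would have made an 81st gene, while the other, which was kept because of its higher mean over the crosses, had 26.2, 36 and 35.9 RPKM in the same crosses, against 6.71 in Allo733.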

How the data were processed

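Poly(A) RNA from siliques was sequenced, with 1 library per group. Per the file headers, the authors deposited RPKM of each transcript, total and by allele, in every cross, and smaller tables of a cross next to Allo733. The build was TAIR 9, according to the submitters' processing notes. Which aligner was used, how reads were assigned to alleles and which rule selected the transcripts of the smaller tables is not given in the sources used here. RPKM depends on each library's total, and no count or depth could be recovered. The letters T and A of the headers were taken to stand for A. thaliana and A. arenosa. In the allele table of Col, the 4 repeated header lines were dropped, and its 41 transcripts with both alleles at 0 were left out.

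Each gene was represented by 1 transcript, chosen by the number of tables that list it and then by its mean RPKM over the crosses. Ratios were log2 of RPKM plus 0.1. The comparison with Allo733 chose the genes and has no test. Allelic ratios were tested with an intercept-only fit in limma 3.58.1 (R 4.3.3), adjusted over all 14660 genes by Benjamini-Hochberg at 0.05. The variance trend of the fit was on the mean allelic ratio of each gene and not on its expression level. The spread between crosses holds ecotype and library together. On simulated data with a small set of shifted genes the fit gave the right signs but called no gene. A simulation with many shifted genes, added after that outcome was seen, called most of them, so that calls at this size depend on how many genes are shifted. Totals between crosses were called at 2-fold after median centring. RefSeq names, products, promoters and 36-base word overlaps came from TAIR10.1, by gene code, with 79 of 80 codes matched. Python 3.11.15, numpy 2.4.6, pandas 2.3.3 and matplotlib 3.10.9 were used.

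The members and the 18 gene lists were chosen with earlier results of these data known, and the 10 roles and the families of product words were drawn up after the values had been seen. The rule for named genes took the 12 with the largest smallest difference, those on a list, those with extreme shares, allelic calls, spread or Allo733 level, and those at the threshold. The other genes were named to account for every role. Of the 80 genes, 1 is counted but not reported by name here. Alternatives were other pseudocounts, filters, folds, transcript choices, centring and leaving out each cross.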

Additional observations from a re-analysis of the deposited data

How the results depend on the processing

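The count of 80 lower genes became 79 with a pseudocount of 1 RPKM, 80 with one of 0.01 RPKM, 80 with a minimum of 5 RPKM in Allo733, 84 with every transcript on its own and 21 with a 4-fold rule. With each cross left out in turn, so that only 2 tables had to list a gene, it was 110 without C24, 129 without Ler and 123 without Col. Of 3 alternatives chosen after seeing the data, a mean that includes Allo733 gave 81, completing totals from the allele tables gave 109, and summing isoforms gave 77.

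The allelic calls depended on the settings. With a pseudocount of 1 RPKM, 24 of the 80 genes were above and 11 below, beside 3612 and 3500 of all 14660 genes. Of the 17 calls 15 held, while AT2G37600 at 0.42 and AT1G43910 at -0.28 kept their sign and no longer passed. With a minimum of 5 RPKM in every cross, 12 of 64 were above and 2 below, beside 978 and 387 of 11236 genes. With any cross left out, 0 were above and 0 below. Without centring, 0 were above and 75 below, and 14 log2 ratios reversed: AT5G18065 at -2.53, AT5G02080 at -1.95, AT4G19430 at -0.79, AT2G19970 at -0.24, AT3G04490 at -2.37, ELIP2 at -1.29, AT4G16770 at -2.32, AT1G54850 at -2.61, PAO4 at -2.81, AT1G12010 at -0.47, AT3G04230 at -1.85, SQE6 at -1.70, AT2G37600 at -2.63 and AT5G59480 at -1.56. Leaving out centring restores the excess of the A. thaliana allele by construction.

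The median share in the Ler cross was 4.32% with a minimum of 5 RPKM; other shares moved less than their spread. Between crosses, the 4-fold rule left 0 genes above and 0 below for C24, 0 above and 0 below for Ler and 1 below for Col, and without centring 4 were below for C24 and 2 above for Ler. For these changes the cause was not tested. No paired analysis was possible because each group is 1 library. Depth is unknown, so values near the lowest listed 2 RPKM have no counting error.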

Other observations

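Genes that were listed beside Allo733 for only 1 or 2 crosses could be completed with the totals of the allele tables, an alternative chosen after seeing the data. Of 1714 genes complete in this way, 109 were at least 2-fold lower in all 3 crosses, which included 78 of the 80 genes (not EXPA10 and AT3G06700, for which other isoforms were then kept) and 31 others. TAS2, a precursor of trans-acting small interfering RNAs, had 2.08, 6.02 and 4.83 RPKM in the crosses of C24, Ler and Col, against 19.6 in Allo733. XTH31 and XTH32, of a family that cuts and rejoins xyloglucan in cell walls, had 11.0, 6.88 and 2.92 RPKM and 13.4, 10.8 and 10.5 RPKM in the same crosses, against 27.6 and 31.4 in Allo733. SWI3A, a subunit of a chromatin remodelling complex, had 4.26, 7.63 and 6.97 RPKM in the same crosses, against 22.4 in Allo733. YAB2, a regulator of the lower side of leaves and floral organs, had 16.2, 17.8 and 16.2 RPKM in the same crosses, against 36.6 in Allo733, and NIMIN1, which binds the defence regulator NPR1, had 4.30, 7.43 and 2.90 RPKM in the same crosses, against 16.0 in Allo733. MSL10, a mechanosensitive channel, had 3.77, 5.63 and 5.15 RPKM in the same crosses, against 16.9 in Allo733.

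In gene structure the 80 genes stood near the 246 other listed genes. Their median transcript length was 1479 bases, beside 1325 bases, and their median GC content was 41.3%, beside 42.6%. Single-exon genes were 12.7% of the 80 genes with a RefSeq model, beside 18.4% of the others. Chromosomes 1 to 5 held 27, 10, 15, 10 and 17 of them, beside 93, 50, 67, 38 and 76 of all listed genes.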
